A study of Homo sapiens with 8 samples.

Results

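The comparison described here is the addition of vorinostat to EC359 in BT-549 cells, an established line of triple-negative breast cancer (TNBC). Its members are the 2 libraries of the combination and the 2 libraries of EC359, 4 of the 8 RNA-seq libraries in the series. EC359 cells received 100 nM EC359, a small-molecule inhibitor of the leukemia inhibitory factor receptor (LIFR), and combination cells received the same dose of EC359 together with 10 µM vorinostat (SAHA), an inhibitor of histone deacetylases (HDACs). Treatment lasted 24 h in every group. The other 4 libraries, 2 of DMSO vehicle and 2 of 10 µM vorinostat without EC359, gave the effect of the same HDAC inhibitor in the absence of EC359. All cells came from 1 line grown in serum, and nothing in the labels says whether the libraries numbered 1 and 2 came from separate cultures, so p-values measure the spread between these libraries, which may be technical. Of 23228 genes listed, 13694 had enough counts to be tested.

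HDACs remove acetyl groups from histones and other proteins, and inhibitors of these zinc-dependent enzymes leave chromatin more acetylated. In many cancer cells this class of drug is known to raise the CDK inhibitor p21, linker histone H1.0 and genes that are normally silent in the lineage, and to lower genes of the cell division cycle. LIFR pairs with gp130 (IL6ST) and signals through JAK kinases to STAT3, with SOCS3 as a feedback inhibitor. The comparison asks what the HDAC inhibitor adds when EC359 is present.

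Gene counts per library ran from 19069450 to 24759041. The labelled identity was checked against marker genes. ESR1, the estrogen receptor, was at a mean of 0.124 CPM (counts scaled to a common library size, by TMM) in EC359 and 0.793 CPM in the combination, and PGR had at most 1 count in any library. ERBB2 was at 76.1 and 80.2 CPM in EC359 and at 12.03 and 12.6 CPM in the combination. The mesenchymal marker VIM was at 3419 and 3258 CPM in EC359 and at 9309 and 9442 CPM in the combination, and the epithelial markers CDH1, EPCAM, KRT8, KRT18 and KRT19 were under 10 CPM in every library. Of the other mesenchymal markers, FN1 was at means of 2430 CPM in EC359 and 4486 CPM in the combination, and CDH2 at 35.0 and 34.1 CPM. ZEB1 (175 and 74.6 CPM), AXL (582 and 163 CPM) and SPARC (1899 and 907 CPM) had lower means in the combination. The 2 EC359 libraries stood further apart than any other pair, with an SD of 0.56 across genes for their log2 difference, against 0.45 for the combination, 0.35 for vehicle and 0.31 for vorinostat. The difference between them ran with transcript length and with GC content: the median log2 ratio of EC359 library 2 to library 1 was 0.13 over the 2625 shortest transcripts and -0.15 over the 2621 longest, and it was -0.13 in the 2621 genes of lowest GC content and 0.15 in the 2621 of highest. Neither was corrected, and the share of genes called higher rose from 15.0% to 26.1% across the same GC classes.

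Adding vorinostat to EC359 changed a large share of the transcriptome. A gene counted as changed, or called, when its log2 fold change lay beyond 1 in either direction and its Benjamini-Hochberg adjusted p, from the quasi-likelihood test of edgeR, was below 0.01. This held for 4620 genes, 33.7% of those tested. More genes rose than fell: 2712 were higher in the combination (19.8%) and 1908 were lower (13.9%). The rises were also larger, with a median log2 fold change of 2.02 in the genes called higher and -1.47 in the genes called lower, against 0.06 over all tested genes. A log2 fold change beyond 3 was seen in 834 genes called higher and in 123 called lower, or in 815 and 120 when genes at 0 counts in one group were set to the bound that 3 counts over that group allow. The 4 libraries separated without overlap for every called gene, which is a weak criterion here since it was met by 79.7% of all tested genes. With 1 of the 8 libraries left out in turn, the number of called genes lay between 4146 and 4823. All values are relative within a library: fewer cells of a kind and less RNA per cell cannot be told apart in bulk RNA, and RNA yield per cell was not used here.

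**Figure D1:**
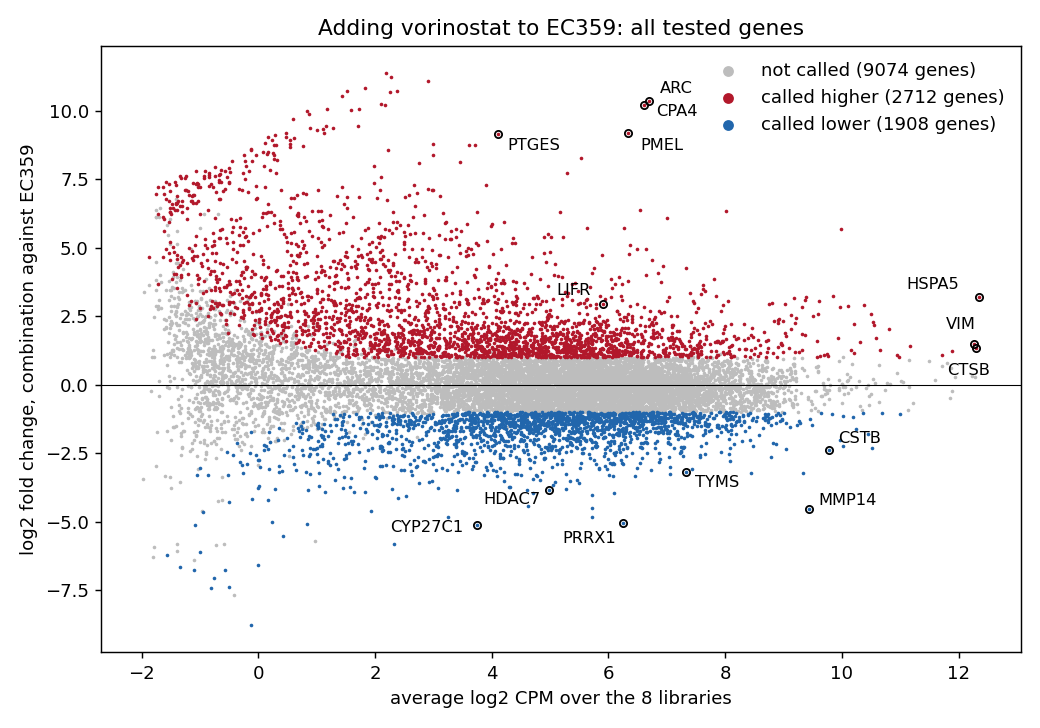
Log2 fold change of the combination against EC359 (vertical axis) against the average log2 CPM over the 8 libraries (horizontal axis) for 13694 genes, with 2712 genes called higher in red, 1908 called lower in blue and 9074 not called in grey. Circled genes are named in the text, and the rises reach further from 0 than the falls, up to 10.37 for ARC among the circled genes and down to -5.11 for CYP27C1.

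The direction of the change ran with the level of a gene in untreated cells. Among 1889 tested genes with a mean below 1 CPM in vehicle, 45.1% were called higher and 1.38% lower. The shares moved steadily across the levels, to 24.96% higher and 13.4% lower in the 2524 genes between 5 and 20 CPM and to 5.75% higher and 20.8% lower in the 2557 genes above 100 CPM. The median log2 fold change went from 2.25 in the lowest class to -0.35 in the highest. The lowest class is shaped by the filter on low counts, since a gene that is near 0 in vehicle was tested only if it was high in another group. The 4 classes above it show the same order, with medians of 0.54, 0.28, -0.15 and -0.35. As a share of all normalized counts, genes called higher went from 8.30% and 8.21% in the EC359 libraries to 28.2% and 27.8% in the combination libraries. Genes called lower went the other way, from 20.8% and 18.8% to 6.92% and 7.06%. The genes were selected as higher or lower in these same libraries, so the direction of both shifts follows from the selection.

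**Figure D2:**
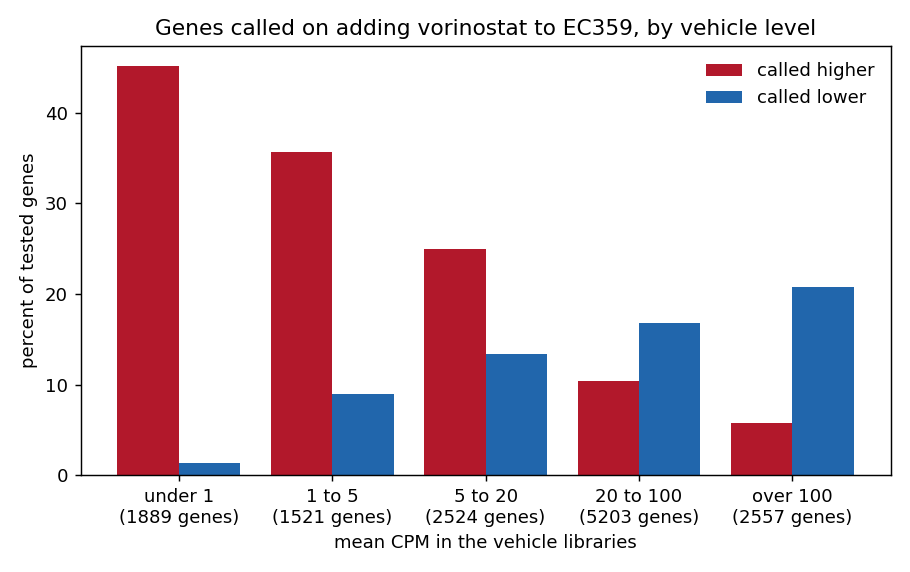
Percent of tested genes called higher (red) and lower (blue) on adding vorinostat to EC359 (vertical axis), in 5 classes of mean vehicle CPM (horizontal axis, genes per class in brackets). The red bars fall from 45.1% to 5.75% and the blue bars rise from 1.38% to 20.8% from the lowest to the highest class.

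The largest rises among genes with an average log2 CPM of at least 3 included several genes that are not typical of breast cells. ARC, a regulator of synaptic receptor traffic and an activity-induced gene of neurons, was at 0.165 and 0.457 CPM in EC359 and at 406 and 395 CPM in the combination. Its log2 fold change was 10.37 ± 0.33 (approximate SE from the F statistic, adjusted p = 7.16e-08). CPA4, a secreted carboxypeptidase first found as a gene induced by HDAC inhibition, went from 0.371 and 0 CPM to 262 and 237 CPM, a log2 fold change of 10.22 ± 0.34. PMEL, the matrix protein of pigment cell melanosomes, went from 0.206 and 0.254 CPM to 152 and 118 CPM. These genes were close to silent under EC359 and well expressed in both combination libraries. The chemokine CCL20 went from 0.701 and 0.406 CPM to 186 and 164 CPM, and the synaptic adhesion gene NRXN2 from 0.454 and 0.203 CPM to 75.4 and 73.3 CPM. CNN1, a smooth muscle calponin, went from 0.330 and 0 CPM to 31.3 and 27.4 CPM, and the long noncoding RNA C5orf27 from 0.247 and 0.152 CPM to 25.4 and 24.1 CPM. The other 5 genes of this group had 2 or 3 counts in the EC359 libraries together, so their ratios carry wide counting intervals. PTGES, a prostaglandin E synthase, had a ratio of 647 (95% exact interval 179 to 5350), the phosphatase PHOSPHO1 489 (135 to 4047) and the actin-related ACTBL2 487 (134 to 4024). RUNDC3A had a ratio of 377 (104 to 3119) and the calcium sensor HPCAL4 303 (103 to 1472). These intervals cover counting error only. ACTBL2 resembles other actin genes, and PMEL, RUNDC3A and NRXN2 overlap genes on the opposite strand, so the assignment of their reads is less certain, since no source used here states whether HTSeq counted by strand.

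Many genes with no count at all under EC359 were detected once vorinostat was added. Of 7578 genes with 0 counts in both EC359 libraries, 639 had a count in both combination libraries, 169 had enough counts to be tested, and 151 of these were called higher. A gene at 0 in EC359 passed the filter only through groups where it was high, so the last count is largely set by the filter. In the opposite direction, 127 genes had a count in both EC359 libraries and none in the combination. IRGM, an autophagy GTPase, had 327 and 283 counts in the combination, at least 229-fold higher than the 3 counts over both EC359 libraries used as the floor. RPL3L, a ribosomal protein of striated muscle, had 267 and 296 counts (at least 211-fold), and COX6B2, a testis form of a cytochrome c oxidase subunit, had 275 and 232 (at least 190-fold). The next by CPM in the combination were EBLN1 (at least 158-fold), SEPT4 (at least 148-fold), TNFAIP6 (at least 146-fold), VWA5B2 (at least 143-fold) and PRND (at least 128-fold). Background counts were low in vehicle as well, at 0 and 3 counts for IRGM, 0 and 0 for RPL3L and PRND, and 6 and 3 for COX6B2.

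The largest falls were smaller than the largest rises and included regulators of transcription, chromatin genes and cell surface proteins. CYP27C1, a retinoid desaturase of the cytochrome P450 family, went from 27.5 and 22.3 CPM in EC359 to 0.409 and 1.02 CPM in the combination, a log2 fold change of -5.11 ± 0.29 (adjusted p = 7.64e-07). PRRX1, a homeobox factor of mesenchymal cells, went from 193 and 127 CPM to 4.20 and 5.41 CPM (-5.06 ± 0.24), and KCTD15, a regulator of neural crest formation, from 97.6 and 107 CPM to 2.76 and 4.39 CPM. MMP14, the membrane-anchored collagenase that activates MMP2, went from 2318 and 2057 CPM to 89.1 and 102 CPM (-4.52 ± 0.11). In each of these genes the combination libraries held a small fraction of the EC359 level. GAS1, a membrane protein of growth arrest and hedgehog signalling, fell from 104 and 101 CPM to 5.07 and 4.03 CPM. XAF1, an antagonist of the apoptosis inhibitor XIAP, fell from 47.2 and 34.8 CPM to 2.25 and 1.53 CPM. Among chromatin genes, the reader ZMYND11 fell from 120 and 85.5 CPM to 6.55 and 6.03 CPM, and the Polycomb partner PHF19 from 93.3 and 120 CPM to 6.40 and 7.51 CPM. HDAC7, a class IIa deacetylase and thus a member of the family that vorinostat addresses, fell from 45.7 and 62.5 CPM to 2.46 and 5.11 CPM (-3.84 ± 0.28). The group also held the cytokine CLCF1 (-4.81 ± 0.24), the cytoskeletal scaffold KANK1 (-3.94 ± 0.15) and the myosin gene MYH15 (-3.83 ± 0.20).

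Among the called genes with the highest CPM, a level that is not divided by transcript length, HSPA5 led the rises. HSPA5 encodes BiP, the main chaperone of the endoplasmic reticulum (ER), and went from 1244 and 1355 CPM in EC359 to 12672 and 11544 CPM in the combination, a log2 fold change of 3.22 ± 0.08 (adjusted p = 3.08e-08). The lysosomal protease CTSB rose from 4017 and 3984 CPM to 9991 and 10201 CPM, and the intermediate filament VIM from 3419 and 3258 CPM to 9309 and 9442 CPM. Other members of this group handle metals or heme. The zinc and iron importer SLC39A14 rose from 952 and 1218 CPM to 4740 and 4047 CPM, the iron store subunit FTH1 from 2153 and 1238 CPM to 3895 and 5055 CPM, and heme oxygenase HMOX1 from 1512 and 2143 CPM to 4063 and 3722 CPM. The glycolytic enzymes LDHA (log2 fold change 1.09 ± 0.11) and ALDOA (1.21 ± 0.07) completed it. The falls with the highest CPM were led by CSTB, an inhibitor of cysteine cathepsins, which went from 2943 and 1940 CPM to 451 and 481 CPM (-2.39 ± 0.17), and by MMP14. The fibrillar collagen COL5A2 fell from 1943 and 2032 CPM to 419 and 375 CPM, and the matrix protein SPARC from 1869 and 1929 CPM to 912 and 903 CPM. The splicing factor HNRNPA2B1 (-1.81 ± 0.12), the actin binder PFN1 (-1.61 ± 0.23), the beta-tubulin TUBB (-1.03 ± 0.08) and the nucleolar protein NCL (-1.02 ± 0.19) also fell. The EC359 pair was spread in both PFN1 (2617 and 1459 CPM) and NCL (2464 and 1496 CPM), and NCL fell under the fold threshold without EC359 library 1 (-0.63) and missed the adjusted p without combination library 1 (0.0135).

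**Figure D3:**
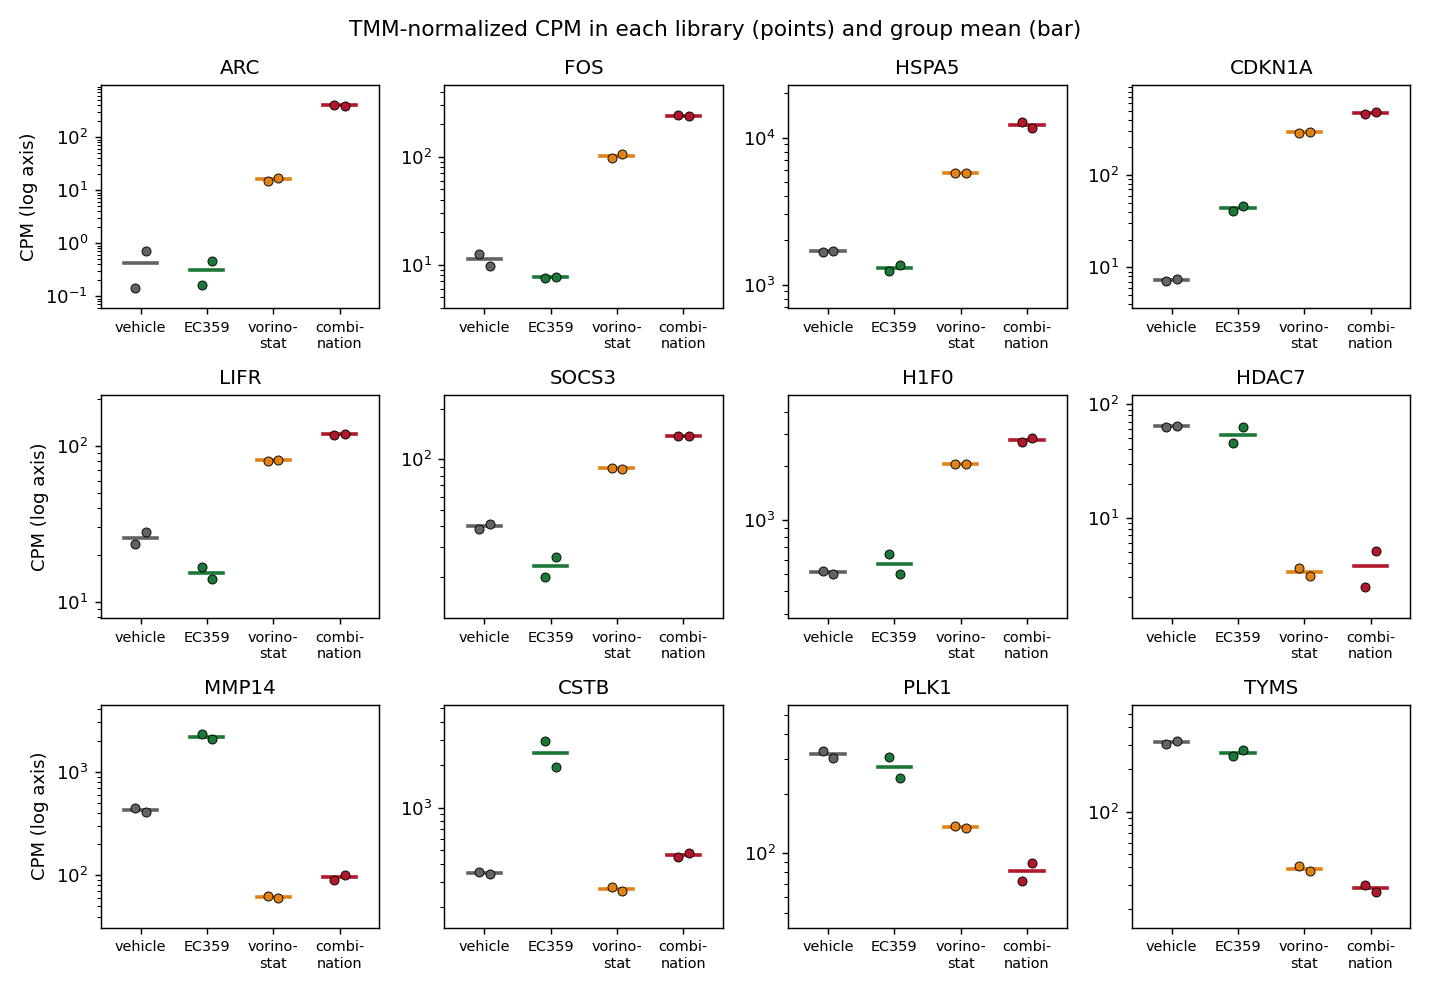
TMM-normalized CPM (log axis) of 12 named genes in the 8 libraries, with 1 point per library and a bar at the mean of each group of 2. The combination points lie above the EC359 points for ARC, FOS, HSPA5, CDKN1A, LIFR, SOCS3 and H1F0 and below them for HDAC7, MMP14, CSTB, PLK1 and TYMS, without overlap in any panel.

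On the GRCh37 build, which shares its coordinates with the hg19 build used for alignment, GENCODE places the protein-coding genes named above at chr7:129932974-129964020 for CPA4, chr12:56347889-56367101 for PMEL, chr9:127997132-128003661 for HSPA5, chr14:23305769-23318250 for MMP14, chr1:170631869-170708562 for PRRX1 and chr12:48176505-48226915 for HDAC7. Counts were summed over the exons of a gene, so they give no position within it. A match to GENCODE was found for 13102 tested genes (95.7%). Genes called higher had a median transcript GC content of 50.7% and genes called lower 48.7%, against 47.9% over all matched genes, and the part of GC content in the calls was not tested.

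The genes of the acetylation machinery itself did not move together. Of 11 zinc-dependent HDACs, 2 rose, 1 fell and 8 did not pass, and their median log2 fold change was -0.01. These counts and those below stand beside the 19.8% of all tested genes that rose and the 13.9% that fell. HDAC5 rose from 19.4 and 19.5 CPM to 70.4 and 67.8 CPM (1.83 ± 0.12) and HDAC3, the catalytic subunit of the NCoR complex, from 69.4 and 73.7 CPM to 150 and 153 CPM (1.08 ± 0.09). HDAC7 was the member that fell, and HDAC2, the member with the highest CPM, had a log2 fold change of -0.11 ± 0.12 (adjusted p = 0.453). On the opposing side, 4 of 13 acetyltransferases and BET readers fell and none rose. These were the acetyltransferases CREBBP (-1.60 ± 0.23), KAT2A (-1.52 ± 0.16) and KAT6B (-1.17) and the bromodomain reader BRD3 (-1.09), and between 2 and 6 members fell in the other fits. The DNA methyltransferases DNMT3A (-2.08 ± 0.18) and DNMT1 (-1.15 ± 0.10) fell, while DNMT3B (1.04), at a mean of 6.59 CPM in EC359, rose. Linker, clustered core and replacement histone genes were mostly higher, with 7 of 12 called higher, 2 lower and a median of 1.87. H1F0, which encodes H1.0, the linker histone of resting cells, rose from 644 and 495 CPM to 2709 and 2843 CPM (2.28 ± 0.12). HIST1H1C rose from 7.92 and 11.2 CPM to 132 and 114 CPM (3.69 ± 0.19), and the replacement variant H2AFZ fell from 201 and 413 CPM to 125 and 97.4 CPM (-1.46 ± 0.29). Histone genes have close copies, so the split of reads among HIST1H1C, HIST1H2BD and their relatives is uncertain.

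Cell cycle genes moved toward lower expression, and CDK inhibitors split. CDKN1A, which encodes p21 and blocks CDK2, rose from 40.4 and 46.6 CPM in EC359 to 459 and 480 CPM in the combination (3.43 ± 0.10, adjusted p = 5.76e-08). CDKN2B, which encodes the CDK4 and CDK6 inhibitor p15, rose from 36.3 and 27.6 CPM to 256 and 250 CPM (2.98 ± 0.13), and CDKN1C, which encodes p57, had a ratio of 180 (95% exact interval 61.1 to 875) on 3 counts in EC359. The INK4 genes CDKN2A (-1.33 ± 0.12) and CDKN2C (-1.49 ± 0.09) fell, so that 4 of 7 CDK inhibitor genes rose and 2 fell. Of 11 G1 cyclins, CDKs and RB proteins, 5 fell and none rose. CCND1, cyclin D1, fell from 250 and 235 CPM to 52.9 and 57.3 CPM (-2.14 ± 0.10), with CDK6 (-1.38), CDC25A (-1.22), CCNE2 (-1.13) and CDK4 (-1.12). Of 34 DNA replication and nucleotide synthesis genes, 14 fell and 1 rose, with a median of -0.85. TYMS, thymidylate synthase and the target of fluorouracil, fell furthest, from 249 and 273 CPM to 29.9 and 26.8 CPM (-3.20 ± 0.11), followed by POLE2 (-1.74), GINS3 (-1.50) and the helicase subunit MCM3 (-1.47 ± 0.08). MCM4, the replication member with the highest CPM, had a log2 fold change of -0.82 ± 0.08, under the fold threshold. TK1, thymidine kinase, was the member that rose, from 67.5 and 119 CPM to 204 and 200 CPM (1.12 ± 0.22).

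Mitotic genes moved to lower expression as well. Of 40 G2 and mitosis genes, 18 fell and none rose, with a median of -0.88 and a range from -2.18 to 0.31, and 39 of the 40 lay below 0. The master activator FOXM1 fell from 479 and 345 CPM to 86.1 and 96.0 CPM (-2.18 ± 0.15), and the proliferation antigen MKI67 from 632 and 359 CPM to 110 and 130 CPM (-2.04 ± 0.23). The polo kinase PLK1 fell from 306 and 240 CPM to 72.2 and 89.6 CPM (-1.76 ± 0.14), and the cytokinesis motor KIF23 from 146 and 125 CPM to 40.9 and 40.6 CPM (-1.73 ± 0.11). TPX2, the spindle factor with the highest CPM of the group, had a log2 fold change of -0.87 ± 0.14, under the fold threshold. With the other settings, between 17 and 20 members fell. Homologous recombination and Fanconi genes had 10 of 24 lower and none higher, with a median of -0.78. These included the ubiquitin ligase subunit FANCL (-2.68), NBN (-1.59) and FANCI (-1.59). The lists of this paragraph and of those before and after it were drawn with earlier results of these data known. Their counts are descriptions beside the 19.8% of all tested genes that rose and the 13.9% that fell.

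Promoters of the mitotic genes were read because members of this group moved together. The CHR element (TTTGAA, either strand) and the CCAAT box (CCAAT, either strand) are the known elements of cell cycle promoters bound by the DREAM complex and by NF-Y. RefSeq promoter windows, 250 bases before to 50 after the start on GRCh38.p14, were found for 10482 of the 13694 tested genes and for 34 of the 40 G2 and mitosis genes. The CHR letters were present in 25 of these 34 windows (73.5%) against 9.60% of all windows. Among the lowered members 13 of 14 windows held them (92.9%), and among the members not called 12 of 20 did (60.0%). CCAAT was present in 25 of 34 windows (73.5%) against 37.2% of all. Of the DNA replication genes, 1 of 30 windows held the CHR letters (3.33%) and 17 held CCAAT (56.7%). The 150 bases before the start are shown for 5 of the 8 lowered mitotic genes that hold both there, chosen after their matches were seen, with the CHR element and the CCAAT box in capitals (ATTGG where CCAAT lies on the other strand).
CCNB2, cyclin B2, chr15:59104996-59105145, plus strand: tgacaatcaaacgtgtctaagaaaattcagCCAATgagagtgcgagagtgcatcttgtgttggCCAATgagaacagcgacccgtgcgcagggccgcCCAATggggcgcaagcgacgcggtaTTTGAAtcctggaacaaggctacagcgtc
PLK1, chr16:23678739-23678888, plus strand: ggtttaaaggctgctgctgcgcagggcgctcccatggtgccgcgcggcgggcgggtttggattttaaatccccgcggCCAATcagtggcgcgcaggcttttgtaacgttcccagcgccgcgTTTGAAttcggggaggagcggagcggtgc
PRC1, a cross-linker of the central spindle, chr15:90994536-90994685, minus strand: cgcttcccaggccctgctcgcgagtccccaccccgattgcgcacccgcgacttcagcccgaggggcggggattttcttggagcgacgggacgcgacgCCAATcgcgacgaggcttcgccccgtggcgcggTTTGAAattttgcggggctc
KIF23, chr15:69414199-69414348, plus strand: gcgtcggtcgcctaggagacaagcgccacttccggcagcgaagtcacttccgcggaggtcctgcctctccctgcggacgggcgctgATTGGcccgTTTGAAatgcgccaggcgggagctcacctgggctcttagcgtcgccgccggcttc
ESPL1, separase, chr12:53268149-53268298, plus strand: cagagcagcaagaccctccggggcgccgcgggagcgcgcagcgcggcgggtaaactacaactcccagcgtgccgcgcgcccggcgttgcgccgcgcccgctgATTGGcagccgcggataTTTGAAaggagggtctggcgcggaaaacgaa
In these 5 the CCAAT letters lie upstream of the CHR letters, whereas MKI67, which is not shown, also held a CCAAT match downstream of its CHR letters. CCNB2 fell from 62.9 and 70.8 CPM to 25.5 and 22.1 CPM, PRC1 from 224 and 174 CPM to 65.7 and 66.7 CPM, and ESPL1 had a log2 fold change of -1.65. A match of letters is a description of the window and not a measured site.

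Genes of the apoptosis machinery moved in both directions. Of 21 pro-apoptotic BCL2 family and apoptosome genes 8 rose and 2 fell, beside 19.8% and 13.9% of all tested genes, with a median of 0.74. The BH3-only genes BMF (2.43 and 1.47 CPM to 21.8 and 20.7 CPM, 3.42 ± 0.23) and BCL2L11, which encodes BIM (14.8 and 11.8 CPM to 66.0 and 60.1 CPM, 2.24 ± 0.15), rose. BIK had no counts in EC359 and 104 in the combination, at least 39.0-fold higher. PMAIP1, which encodes NOXA, rose from 6.97 and 6.39 CPM to 22.2 and 26.1 CPM (1.85 ± 0.16), while BBC3, which encodes PUMA, had a log2 fold change of 0.76 ± 0.16 and did not reach the fold threshold. The BH3-only gene BID (-2.39 ± 0.18) and BOK (-1.68 ± 0.21) fell. Among the 9 anti-apoptotic genes BCL2A1 rose from 12.99 and 14.96 CPM to 89.97 and 84.4 CPM (2.64 ± 0.14), BCL2L1, which encodes BCL-XL, fell from 200 and 178 CPM to 64.7 and 66.0 CPM (-1.53 ± 0.09), and MCL1 stayed within the fold threshold (0.67 ± 0.09). Among death receptors the TRAIL receptor TNFRSF10B rose from 148 and 196 CPM to 543 and 445 CPM (1.52 ± 0.14), whereas TNFRSF1A (-1.69) and the caspase-8 inhibitor CFLAR (-1.87) fell.

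Stress genes moved in both directions, in shares that can be set beside the 19.8% of all tested genes that rose and the 13.9% that fell. Of 20 ER chaperones and unfolded protein response genes 3 rose: HSPA5, HERPUD1 (94.2 and 91.4 CPM to 456 and 421 CPM, 2.24 ± 0.09), which takes part in ER-associated degradation, and the sensor ERN1 (2.09). Other chaperones of the same compartment did not move by this much, with log2 fold changes of 0.79 ± 0.17 for CALR and 0.00 for HSP90B1, and the transcription factor XBP1 fell (-1.55 ± 0.13). The median of the list was 0.13, and 16 of its 20 members did not pass. In 17 of 19 promoters of this list (89.5%) the CCAAT letters were present, against 37.2% of all windows, and the HSPA5 promoter held them in 2 places of the 150 bases before its start, shown in capitals.
HSPA5, chr9:125241344-125241493 on GRCh38.p14, minus strand: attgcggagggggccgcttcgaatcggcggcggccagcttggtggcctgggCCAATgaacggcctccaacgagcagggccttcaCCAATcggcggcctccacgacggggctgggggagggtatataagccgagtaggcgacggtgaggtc
In the integrated stress response 6 of 27 genes rose and 4 fell, both close to those shares. The glutathione-degrading enzyme CHAC1 (3.08 ± 0.14), ATF3 (34.1 and 38.9 CPM to 284 and 242 CPM, 2.85 ± 0.12), SESN2 (2.52) and DDIT3, which encodes CHOP (35.4 and 33.8 CPM to 167 and 150 CPM, 2.20 ± 0.10), rose, and the amino acid transporter SLC38A2, at the highest CPM of the list, had a log2 fold change of 0.30. NUPR1 (-3.74 ± 0.23) and ALDH1L2 (-2.51) fell. GADD45A, a growth arrest gene, rose from 78.4 and 72.1 CPM to 247 and 256 CPM (1.74 ± 0.09) and its relative GADD45B rose by 2.95 on the log2 scale. The heat shock response had 4 of 18 genes higher and 2 lower, also close to them. The inducible HSPA1B (1.87) and HSPA1A (1.74), whose near-identical sequences make their split uncertain, and DNAJB1 (1.60) rose, and the mitochondrial chaperone HSPD1 (-1.22) fell.

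Metal, redox and lysosome genes followed. The zinc exporter SLC30A1 rose from 12.7 and 15.5 CPM to 206 and 187 CPM (3.80 ± 0.14), the metal-binding MT1X from 103 and 47.5 CPM to 413 and 630 CPM (2.79 ± 0.34) and the metal sensor MTF1 by 1.45 on the log2 scale, while the zinc importer SLC39A10 fell from 62.6 and 56.1 CPM to 18.9 and 18.4 CPM (-1.67 ± 0.10). MT2A, the metallothionein with the highest CPM, did not reach the fold threshold (0.87 ± 0.23), and metallothioneins are close copies of each other. Of 19 NRF2 antioxidant targets 10 rose and 1 fell, with a median of 1.07. SRXN1 (2.31), FTL (1.70) and OSGIN1 (1.62) led the rises with ample counts, and KEAP1, the inhibitor of NRF2, was the gene that fell (80.6 and 110 CPM to 20.4 and 24.9 CPM, -2.07 ± 0.18). Of 32 lysosome and autophagy genes 10 rose and none fell, beside 19.8% and 13.9% of all tested genes, with a median of 0.44. They included the sialidase NEU1 (2.37), the autophagosome protein MAP1LC3B (302 and 277 CPM to 1420 and 1327 CPM, 2.25 ± 0.09), the autophagy receptor SQSTM1 (1.69 ± 0.07) and CTSB.

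Immediate early genes, the first genes switched on by growth factors, stress or membrane signals, were mostly higher. Of 20 members 16 rose and 1 fell, beside 19.8% and 13.9% of all tested genes, with a median of 2.19. FOS rose from 7.55 and 7.76 CPM to 243 and 237 CPM (4.97 ± 0.14), EGR1 from 22.8 and 16.1 CPM to 298 and 356 CPM (4.06 ± 0.20) and the orphan receptor NR4A1 from 12.7 and 10.6 CPM to 167 and 186 CPM (3.91 ± 0.16). MYC rose from 420 and 338 CPM to 731 and 804 CPM, just past the threshold (1.02 ± 0.12), and JUN, at the highest CPM of the list, stayed just under it (0.98 ± 0.08). FOSL1, which encodes the AP-1 partner FRA1, fell from 551 and 304 CPM to 101 and 133 CPM (-1.87 ± 0.26). The ERK feedback genes were divided: the phosphatase DUSP1 rose from 13.9 and 15.3 CPM to 308 and 286 CPM (4.35 ± 0.13), DUSP5 (1.90), SPRY1 (1.48) and DUSP6 (1.22) rose, and DUSP4 (-1.73) and SPRY4 (-1.47) fell. Glucocorticoid receptor targets, which share DUSP1 with that list, had 8 of 10 higher and none lower, with a median of 2.83. CRISPLD2 rose from 3.46 and 2.59 CPM to 202 and 218 CPM (6.10 ± 0.15), the thioredoxin inhibitor TXNIP from 151 and 182 CPM to 1605 and 1472 CPM (3.21 ± 0.11), the kinase SGK1 from 192 and 175 CPM to 1589 and 1540 CPM (3.09 ± 0.09) and the EGFR inhibitor ERRFI1 from 579 and 530 CPM to 3348 and 3219 CPM (2.57 ± 0.08). The receptor itself, NR3C1, had a log2 fold change of -0.60.

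Genes of the LIFR pathway, the target of EC359, moved in both directions. LIFR rose from 16.7 and 14.1 CPM in EC359 to 118 and 120 CPM in the combination (2.95 ± 0.13, adjusted p = 2.45e-07), and its partner IL6ST rose from 340 and 272 CPM to 1836 and 1669 CPM (2.52 ± 0.12). The ligand LIF was at 119 and 114 CPM in EC359 and at 95.9 and 101 CPM in the combination, a difference that did not pass (-0.24 ± 0.11, adjusted p = 0.0785). Of the other ligands of the receptor, CTF1 fell from 5.03 and 4.11 CPM to 1.07 and 0.970 CPM (-2.16 ± 0.29), and OSM and CNTF had at most 3 counts in any library and were not tested. IL6 rose from 14.3 and 12.4 CPM to 114 and 120 CPM (3.13 ± 0.12) and the related cytokine CLCF1 fell (-4.81 ± 0.24). Downstream, STAT3 rose from 156 and 171 CPM to 359 and 320 CPM (1.05 ± 0.09) and the feedback inhibitor SOCS3 from 19.96 and 26.0 CPM to 137 and 138 CPM (2.58 ± 0.13). STAT6 (-2.22 ± 0.12), SOCS6 (-1.44) and STAT5B (-1.32) fell, so that 7 of 22 JAK, STAT, SOCS and PIAS genes rose and 3 fell. Over all tested genes 19.8% rose and 13.9% fell. LIFR overlaps the antisense gene LIFR-AS1, whose reads cannot be told apart without strand.

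Growth factor receptors moved in both directions. ERBB2 (-2.66 ± 0.11) and EGFR (254 and 171 CPM to 51.0 and 58.7 CPM, -1.95 ± 0.17) fell, and ERBB3 rose from 0.990 and 0.710 CPM to 11.3 and 12.7 CPM (3.79 ± 0.22). The TGF-beta family gene INHBA rose from 377 and 270 CPM to 2946 and 3142 CPM (3.23 ± 0.15) and the matricellular CTGF from 220 and 202 CPM to 1750 and 1801 CPM (3.07 ± 0.09), while SMAD3 fell (-1.11). Of the BMP-responsive ID genes, inhibitors of differentiation, 3 rose: ID2 from 50.3 and 43.4 CPM to 209 and 203 CPM (2.13 ± 0.10), ID3 from 68.9 and 94.6 CPM to 304 and 318 CPM (1.93 ± 0.14) and ID1 from 103 and 135 CPM to 309 and 309 CPM (1.37 ± 0.12). ID4, at a mean of 9.63 CPM in EC359, had a log2 fold change of -0.01. YAP1 (-2.28 ± 0.17), TEAD2 (-1.96) and AXL (-1.84) fell, although CTGF and CYR61 (2.17), targets of the same pathway, rose, and that list had 5 of 17 genes higher and 6 lower. In the PI3K and FOXO list 8 of 25 rose, among them IGF1R (1.97), and 3 fell, among them AKT1 (-1.07). The counts of this paragraph stand beside the 19.8% of all tested genes that rose and the 13.9% that fell.

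**Figure D4:**
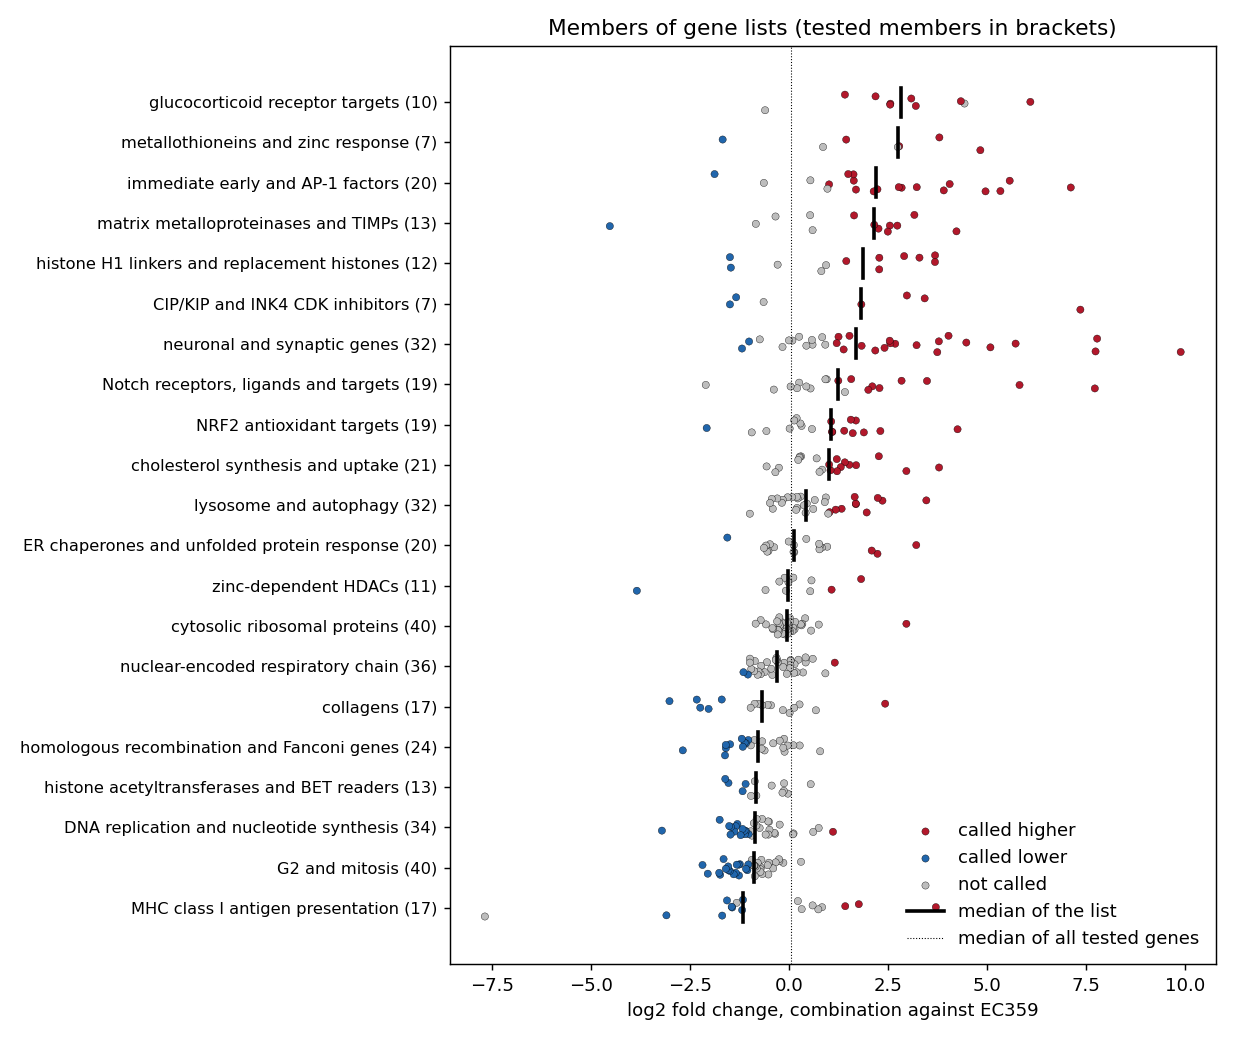
Log2 fold change of the combination against EC359 (horizontal axis) for the tested members of 21 gene lists (rows, number of tested members in brackets), with 1 point per gene, red for called higher, blue for called lower and grey for not called. Black bars are the medians of the lists and run from 2.83 for glucocorticoid receptor targets to -1.16 for MHC class I antigen presentation. The latter row also holds the class II pathway genes CIITA, HLA-DRA and CD74. The dotted line is the median of all tested genes at 0.06.

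Sterol and energy metabolism gave a contrast between a pathway that was raised and systems that hardly moved. Of 21 cholesterol synthesis and uptake genes 11 rose and none fell, beside 19.8% and 13.9% of all tested genes, with a median of 1.02. INSIG1, the sterol sensor partner, rose from 94.7 and 110 CPM to 840 and 763 CPM (2.97 ± 0.10) and the cholesterol carrier STARD4 from 18.9 and 24.3 CPM to 115 and 93.7 CPM (2.27 ± 0.16). Without EC359, vorinostat against vehicle called 4 members of this list higher, with a median of 0.06. The interaction passed in 4 members, HMGCS1 (1.37 ± 0.15, adjusted p = 0.00125), INSIG1 (1.17 ± 0.14), MVK (1.35) and DHCR7 (1.05). In levels, HMGCS1 was at 193 and 200 CPM in vehicle, 113 and 103 CPM in EC359, 175 and 179 CPM in vorinostat and 274 and 230 CPM in the combination. Glycolysis and hypoxia genes were mixed, with 8 of 25 higher, such as the glucose transporter SLC2A3 (3.18) and TPI1 (1.25), and 5 lower, such as PFKL (-1.60) and VEGFA (-1.31). By contrast, 1 of 40 cytosolic ribosomal protein genes was called, RPS27, which has near-identical copies, and the median of the list was -0.04. Of 36 respiratory chain genes 1 rose and 2 fell (COX6A1, UQCRFS1 and NDUFA1), with a median of -0.29. Ribosome biogenesis genes had 6 of 30 lower and none higher, led by the RNA polymerase I factor UBTF (236 and 178 CPM to 30.3 and 36.3 CPM, -2.63 ± 0.17).

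Immune genes did not share a direction. Of 17 tested genes on the MHC class I antigen presentation list 3 rose and 7 fell, beside 19.8% and 13.9% of all tested genes. This list also held the class II pathway genes CIITA, HLA-DRA and CD74. Its median was -1.16, and -1.34 to -0.44 in the other fits. The heavy chains HLA-B (2.39 and 2.64 CPM to 35.98 and 30.03 CPM, 3.71 ± 0.17) and HLA-E (1.77) and the immunoproteasome subunit PSMB9 (1.36 and 1.67 CPM to 4.401 and 3.73 CPM, 1.43 ± 0.24) rose, while the peptide-processing and loading genes ERAP1 (-1.68), PSMB10 (-1.56), TAP2 (-1.44 ± 0.10), PSMB8 (-1.43 ± 0.24) and TAPBP (-1.18 ± 0.15) fell. B2M, the light chain, had a log2 fold change of 0.23. Classical HLA genes are polymorphic and similar, so their counts are uncertain. Of 25 interferon-stimulated genes 7 rose and 7 fell, XAF1 furthest. The NKG2D ligands MICA (2.38), MICB (1.89) and ULBP2 (2.36) and the checkpoint ligand CD274 (1.24), which encodes PD-L1, rose, and PDCD1LG2, which encodes PD-L2, fell from 10.5 and 11.9 CPM to 0.768 and 1.38 CPM (-3.37 ± 0.32). Among NF-kB genes the neutrophil chemokines CXCL2 (8.41 and 12.3 CPM to 137 and 131 CPM, 3.70 ± 0.19) and IL8 (339 and 362 CPM to 1137 and 1039 CPM, 1.64 ± 0.09) rose, and NFKB1 (-3.54 ± 0.23) and the macrophage factor CSF1 (-2.95 ± 0.13) fell. Markers of leukocytes themselves were at low levels, with CD14 at a mean of 1.92 CPM and PTPRC at 0 CPM in the combination. Both were called on few counts, CD14 higher (1 count in EC359 and 75 in the combination) and PTPRC lower (18 and 0).

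Matrix and adhesion genes were remodelled in both directions. Of 13 matrix metalloproteinases and TIMPs 8 rose and 1 fell, beside 19.8% and 13.9% of all tested genes, with a median of 2.16. The inhibitor TIMP1 rose from 263 and 262 CPM to 1572 and 1507 CPM (2.55 ± 0.08), MMP13 (2.50), MMP3 (2.27) and MMP15 (1.65) rose, and MMP14 was the member that fell. Without EC359 the median of this list was 0.12, and the interaction passed in TIMP1 (2.43), MMP13 (2.96), MMP3 (1.93) and MMP14 (-1.71). The protease PLAU, urokinase, fell from 228 and 249 CPM to 22.8 and 24.97 CPM (-3.32 ± 0.11). Of 17 collagens 5 fell and 1 rose. COL16A1 (-3.01), COL5A2 (-2.32 ± 0.08), COL3A1 (688 and 875 CPM to 185 and 147 CPM, -2.24 ± 0.14) and COL6A3 (-2.02) fell, and COL7A1 (2.43), at a mean of 1.42 CPM in EC359, rose, while COL1A1, the type I chain, had a log2 fold change of 0.14 ± 0.07. Of 14 EMT factors and cadherins 6 fell and 2 rose. PRRX1, ZEB2 (127 and 67.3 CPM to 18.5 and 24.8 CPM, -2.17 ± 0.28), CDH11 (-1.42) and ZEB1 (-1.23) fell, and SNAI1 (1.11 and 0.710 CPM to 67.9 and 81.4 CPM, 6.32 ± 0.20) and VIM (1.49 ± 0.07) rose.

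Epithelial junction genes rose in part. TJP3 had a ratio of 153 (95% exact interval 51.9 to 744) on 3 counts in EC359, the junction plaque gene JUP went from 2.02 and 1.27 CPM to 41.6 and 43.4 CPM (4.66 ± 0.20), F11R from 12.99 and 14.3 CPM to 48.5 and 48.3 CPM (1.83 ± 0.11) and CLDN1 from 178 and 131 CPM to 328 and 327 CPM (1.08 ± 0.13). Of 31 keratin, claudin and junction genes 25 were tested, and 7 of these rose and 2 fell, beside 19.8% and 13.9% of all tested genes. The keratins split the combination pair, with KRT8 at 1.33 and 9.19 CPM and KRT18 at 0.716 and 8.02 CPM, and they did not pass. The summed level of 6 epithelial markers was 7.34 and 8.37 CPM in EC359 and 3.17 and 25.5 CPM in the combination, and a sum of 15 hepatocyte genes, chosen after its genes were seen to vary between libraries, was 47.3 and 16.03 CPM in EC359 and 8.70 and 45.5 CPM in the combination. None of the 15 hepatocyte genes was called. The part of these low-level differences between libraries in the epithelial counts was not tested, and TJP3, JUP, F11R and CLDN1 had similar values in both combination libraries.

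Genes of other lineages were among the rises. Of 46 neuronal and synaptic genes 32 were tested, and of these 20 rose and 2 fell, with a median of 1.69. Over all tested genes 19.8% rose and 13.9% fell. A gene near 0 in vehicle and EC359 was tested only if it was high in another group. Among tested genes below 1 CPM in vehicle 45.1% were called higher, so part of this count follows from the filter. The neuronal tubulin TUBB3 rose from 187 and 230 CPM to 764 and 731 CPM (1.84 ± 0.11), the dendrite protein MAP2 from 17.8 and 13.8 CPM to 101 and 104 CPM (2.69 ± 0.13), the tau gene MAPT from 0.990 and 0.659 CPM to 11.7 and 11.6 CPM (3.79 ± 0.32) and SYT11 from 43.4 and 39.7 CPM to 188 and 190 CPM (2.18 ± 0.10). The repressor of neuronal genes REST had a log2 fold change of -0.16, and STMN3 (-1.002) and VAMP2 (-1.18) fell. Of 19 Notch receptors, ligands and targets 9 rose and none fell, with a median of 1.25, among them the ligands JAG1 (2.29) and JAG2 (3.49). The receptors NOTCH1 (0.93) and NOTCH2 (0.21) did not pass the fold threshold. HOX cluster genes went both ways, with 5 of 21 higher and 8 lower. HOXC8 (-3.19), HOXB3 (-2.25), HOXB4 (-2.05) and HOXC6 (-1.47) fell, and HOXC10 (2.47) and HOXC13 (1.43) rose. Among circadian genes PER1 (2.56) and ARNTL (2.12) rose and CLOCK (-1.49) fell, and among long noncoding RNAs the nuclear MALAT1 (2.22) and NEAT1 (1.89) rose.

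To ask how far the effect of vorinostat depended on EC359, vorinostat was compared with vehicle, in the 4 libraries outside the contrast of combination and EC359. Both comparisons came from 1 fit of the 8 libraries, so they share its filter and its estimate of the spread. Vorinostat against vehicle called 4123 genes, 30.1% of those tested, with 2295 higher and 1828 lower. Of the 2712 genes called higher with EC359, 1951 were also called higher without it, which is 71.9% of the first list and 85.0% of the second. Of the 1908 genes called lower with EC359, 1370 were also called lower without it, 71.8% of the first list and 74.9% of the second. Across genes the log2 fold changes of both comparisons, which share no library, had a Pearson r of 0.86 and a Spearman rho of 0.88, given as a description since genes are not independent. Only 8 genes were called in opposite directions, all lower without EC359 and higher with it. They were ARID5B, BFSP1, CDK15, CXCR7, EPHA4, LOC152225, NRXN3 and PCDH18, named after their values were seen. EPHA4, an ephrin receptor, was at a mean of 84.8 CPM in vehicle, 23.0 CPM in EC359, 26.1 CPM in vorinostat and 73.2 CPM in the combination, and ARID5B, a chromatin-binding regulator, at 64.5, 30.2, 31.8 and 98.6 CPM in the same order. In both genes each drug alone had a lower level than vehicle and than the combination.

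A call in one comparison and not in the other is not a difference by itself, so the difference was tested. With the same limit on the adjusted p, 288 genes had an interaction (2.10%), with the log2 effect of vorinostat higher in the presence of EC359 in 222 and lower in 66. Of 1291 genes called with EC359 but not without it, 106 had an interaction, and of 794 called without EC359 but not with it, 59 did. Of the 222 genes, 133 were called higher with EC359, and of the 66 genes, 36 were called lower with it. The number of interactions was sensitive to single libraries: it lay between 56 and 71 when a vehicle, vorinostat or combination library was left out, and was 1420 without EC359 library 1 and 1437 without EC359 library 2.

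The interactions with the largest positive values had different forms. ARC was at 15.1 and 17.1 CPM under vorinostat against 0.142 and 0.701 CPM in vehicle, and at 406 and 395 CPM in the combination, an interaction of 5.14 ± 0.77 log2 units (adjusted p = 0.00577). Its level under both drugs was far above that under vorinostat alone. In PTGES the combination (28.8 and 30.1 CPM) did not exceed vorinostat alone (38.8 and 36.9 CPM), and the interaction of 4.55 ± 0.62 came with a level in EC359 of 0 and 0.101 CPM against 1.32 and 1.78 CPM in vehicle. CRISPLD2 had the same form, with 45.3 and 51.3 CPM in vehicle, 3.46 and 2.59 CPM in EC359, 248 and 251 CPM in vorinostat and 202 and 218 CPM in the combination (3.73 ± 0.18). CPA4 had an interaction of 3.89 ± 0.56 with 139 and 137 CPM under vorinostat. ANK1, which encodes a membrane anchor of the spectrin skeleton, was at 113 and 106 CPM in vehicle and at means of 8.08 CPM in EC359, 5.63 CPM in vorinostat and 4.78 CPM in the combination (3.53 ± 0.25). The chemokine scavenger receptor CXCR7 was at means of 24.7 CPM in vehicle, 5.25 CPM in EC359, 7.19 CPM in vorinostat and 16.2 CPM in the combination (3.40 ± 0.19).

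Several genes with negative interactions stood highest under EC359 alone. ADAM19, a membrane protease, was at 27.1 and 26.7 CPM in vehicle, 152 and 131 CPM in EC359, 26.1 and 24.7 CPM in vorinostat and 20.8 and 21.6 CPM in the combination, an interaction of -2.65 ± 0.15 (adjusted p = 6.97e-05). PLAU (-2.22 ± 0.15) and the axon guidance gene NTNG2 (-2.16 ± 0.19) had the same order of groups. CSTB (-2.01 ± 0.23) also stood highest under EC359 alone, but its combination level of 451 and 481 CPM was above vehicle. CSTB was at 350 and 338 CPM in vehicle against 2943 and 1940 CPM in EC359. MMP14 likewise stood at 443 and 413 CPM in vehicle and 2318 and 2057 CPM in EC359 (-1.71 ± 0.14). HEY1, a Notch target, and ITGB3, an integrin subunit, were raised by vorinostat less with EC359 than without: HEY1 by 0.44 against 2.52 and ITGB3 by 1.71 against 3.74 log2 units, with EC359 levels already above vehicle. Among the genes of the LIFR and JAK-STAT lists and the growth arrest genes named above, those with a higher effect of vorinostat with EC359 included IL6 (2.00), LIF (1.92 ± 0.17), SOCS3 (1.43 ± 0.18), LIFR (1.29 ± 0.17), IL6ST (0.98 ± 0.16) and GADD45A (0.87 ± 0.13). The effect was lower for CDKN1A (-1.88 ± 0.14). The JAK-STAT list and the GADD45 family held 2 positive interactions each, of which only SOCS3 and GADD45A are given here. LIF fell under vorinostat alone, from 25.3 and 21.2 CPM in vehicle to 5.61 and 4.80 CPM, and CDKN1A stood at 7.13 and 7.43 CPM in vehicle, so that its smaller fold with EC359 went with the highest level of all groups. STAT3, ID1, ID2, ID3, MYC, ATF3, TNFRSF10B, BBC3 and PMAIP1 had no interaction at this threshold, with estimates from -0.24 for ID1 to 0.76 for ID2.

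**Figure D5:**
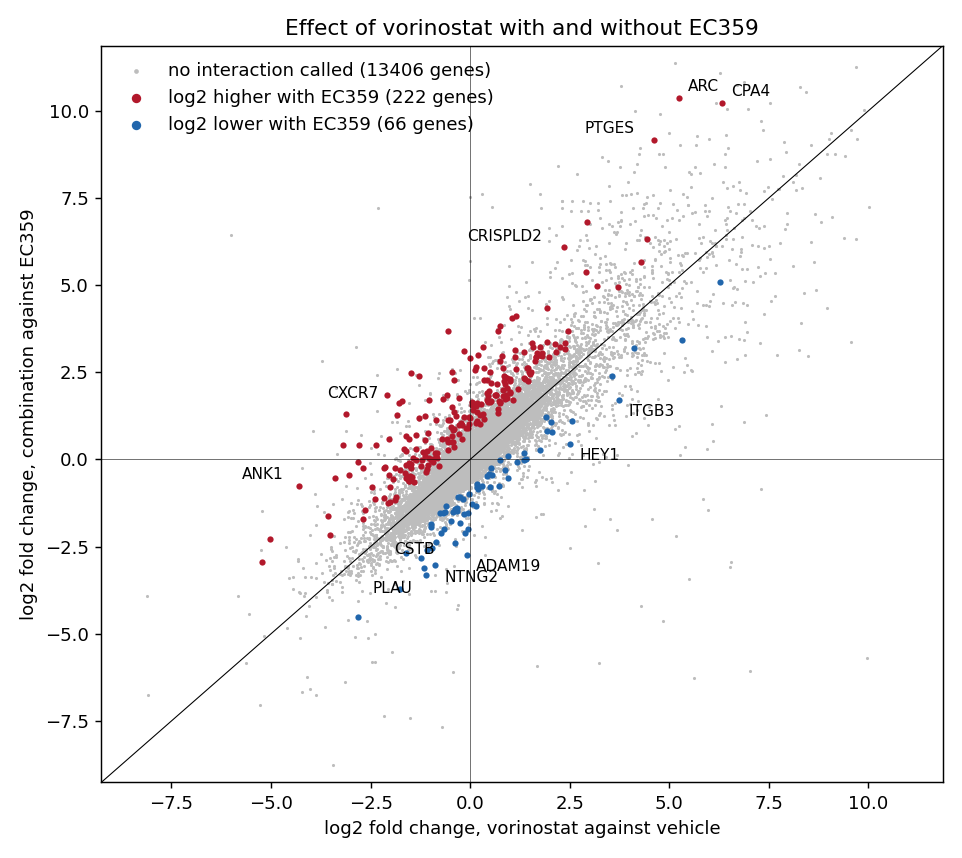
Log2 fold change of vorinostat with EC359 (combination against EC359, vertical axis) against that without EC359 (vorinostat against vehicle, horizontal axis) for 13694 genes, with the line of equal change. The 222 genes with a positive interaction (red) lie above the line and the 66 with a negative one (blue) below it, and the 12 labelled genes are those with the largest values in each direction at an average log2 CPM of at least 3.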

How the data were processed

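RNA-seq was carried out on 8 libraries of BT-549 cells, 2 per group. The authors demultiplexed the reads with bcl2fastq, aligned them to hg19 with TopHat2 2.0.8b and counted them per RefSeq gene with HTSeq, per the labels and the study's methods; the strand setting is not given in the sources used here. The deposited values are raw read counts per gene symbol. The 5 HTSeq summary rows were left out of library sizes and tests, and 11.0% to 14.2% of unique alignments lay on no gene. Gene counts per library were 19069450 to 24759041, and intervals and floors cover counting error only.

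Counts were filtered with filterByExpr, normalized to CPM by TMM and fitted with edgeR 4.0.16 in R 4.3.3, with the 8 libraries in 1 model of 4 groups and the quasi-likelihood F-test. Benjamini-Hochberg adjustment ran over 13694 genes. Calls required a log2 fold change beyond 1 in either direction and an adjusted p below 0.01, and interactions the latter alone. SE is that of the log2 fold change. The fit was also run on counts simulated from the vehicle means and its own dispersions. Such counts do not carry the length and GC differences of the EC359 pair, so they cannot show how those affect the calls. DESeq2 1.42.0, other scalings and filters, a replicate block and the removal of each library were tried as alternatives. The gene lists and the comparison itself were chosen with earlier results of these data known, and the lists were drawn from general knowledge. Named genes were the 12 largest called changes in each direction at an average log2 CPM of at least 3 without overlap of libraries, the 8 called genes of highest CPM in each direction, the 8 highest of those with 0 counts in EC359, the 6 largest interactions in each direction, up to 4 members per list in its more frequent direction and up to 2 in the other with the most abundant member, members with a role to describe, and the genes of the LIFR pathway. Positions came from GENCODE on GRCh37 and promoter windows from RefSeq on GRCh38.p14. Results for some genes are not reported here.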

Additional observations from a re-analysis of the deposited data

Results flagged for a closer look

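In 12 genes, those with the largest values at an average log2 CPM of at least 3, the effect of vorinostat differed between cells with and without EC359 by the interaction term of the edgeR fit (Benjamini-Hochberg adjusted). The log2 effect was higher with EC359 by 5.14 for ARC, 4.55 for PTGES, 3.89 for CPA4, 3.73 for CRISPLD2, 3.53 for ANK1 and 3.40 for CXCR7. Its values for the other direction were -2.65 for ADAM19, -2.22 for PLAU, -2.16 for NTNG2, -2.07 for HEY1, -2.04 for ITGB3 and -2.01 for CSTB. The direction was kept in every fit that was run. The call was lost for 5 or 6 of the 12 when a vehicle, vorinostat or combination library was left out, and for none when an EC359 library was left out.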

How the results depend on the processing

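With EC359, the called genes numbered 4236 to 5027 under the alternatives that kept a fold threshold and all replicates, and 4146 to 4823 with 1 library left out (2237 to 2788 higher, 1900 to 2047 lower). Without a fold threshold they numbered 7642 (4040 higher, 3602 lower), and 7130 without EC359 (3585 and 3545), by construction. Without EC359, 1 library left out gave 3494 to 4369 genes. The interaction depended on the setting, and the cause was not tested. It called 696 genes with DESeq2 (436 above, 260 below), 925 at an adjusted p under 0.05 (642 and 283), 430 with no filter on low counts (281 and 149), and 56 to 1437 with 1 library left out (45 to 892 above, 11 to 639 below). The share above was 77.1% as reported, 62.6% with DESeq2 and 65.3% with no filter.

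The labels give no pairing by replicate number, and the deviations of same-numbered libraries had a correlation of -0.17 for EC359 and combination and 0.23 for vehicle and EC359, with -0.11 to 0.07 for the other 4 pairs of groups. With the numbers as a replicate block 4527 genes were called with EC359, 4013 without it and 189 for the interaction (151 above, 38 below), and ITGB3 lost its interaction (adjusted p = 0.0135). With the combination numbers exchanged, an alternative chosen after seeing the data, the counts were 4671, 4189 and 477 (348 above, 129 below). No named gene or list member reversed under any alternative. A lone library in a group is assumed to vary like the other groups, and 2 libraries per group limit the precision of every comparison.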
